A study of Rattus norvegicus with 12 samples.

Results

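Among the probes whose hepatic signal moved after 17β-estradiol (E2) in hypothyroid-orchidectomized (TXOX) rats, 194 stayed near the TXOX level when growth hormone (GH) was given, with or without E2. They were taken from the 11478 rows of the deposited table of log2 ratios to TXOX that had 3 or more values in each of the 3 treatment groups, out of 22163 rows in all. A row was a member when its mean ratio after E2 was at least 0.58 in size and its means after GH and after E2 plus GH both lay between −0.3 and 0.3. E2 raised 132 of these probes and lowered 62. These same values chose the members, so the means given for the 3 groups are a description and carry no test of their own.

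All animals were male Sprague-Dawley rats, 3 months old, given the antithyroid drug methimazole (MMI) at 0.05% in drinking water for 5 weeks from postnatal day 59 to day 94, and castrated 2 weeks into that treatment. TXOXE2 rats received E2 benzoate at 50 µg/kg on 5 days per week, for 27 days when the stated 20 days and further 7 days are added. Treatment was stated to start 4 days after castration. The stated dates of MMI and castration leave a shorter time than this before day 94. The length of the E2 and vehicle treatment is therefore uncertain. TXOXGH rats received vehicle for 20 days and then GH for 7 days (0.3 mg/kg per day, split into 2 daily injections). TXOXE2GH rats received E2 throughout with GH in the last 7 days. Rats were killed 24 hours after the last E2 injection or 12 hours after the last GH injection. RNA of 4 individual animals per treatment was hybridised, one animal per array, against RNA of vehicle-treated TXOX rats on spotted two-colour oligonucleotide arrays. The treated sample always carried Cy5 and TXOX always Cy3. In any ratio to TXOX an effect of the dye thus cannot be told apart from the treatment. Between treatments it cancels only where it is the same on every array. The sources used here do not say which TXOX animals served on which arrays. Since every animal was hypothyroid and castrated, the values describe hormone action in that state and not in intact rats.

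In the liver, E2 acts mainly through estrogen receptor α, a nuclear receptor that binds DNA directly or through other factors. GH acts through its surface receptor, JAK2 and STAT5b, and the time pattern of its release sets much of the difference in gene expression between male and female rat liver. E2 can alter GH signalling through SOCS proteins, which restrain the GH receptor, and through the pituitary release of GH itself. In RNA from whole liver, fewer cells of a type and less RNA per cell cannot be told apart.

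The files pair no probe with a gene, so the members are described as a population of probes. Lists of E2 and GH target genes, markers of liver cell types and promoter sequences were therefore not analysed here, and the labelled tissue was not checked against its markers. Only the pair of members with the largest rise and the pair with the largest fall are named, by the identifier of the array's design.

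Most members lay close to the limit that chose them. The mean ratio after E2 ran from 0.58 to 2.18 among the raised members, with a median of 0.67 (quartiles 0.61 and 0.77), and 72 of the 132 lay under 0.68. Among the lowered members it ran from −1.52 to −0.58 with a median of −0.64 (quartiles −0.76 and −0.61), and 37 of the 62 were smaller than 0.68 in size. A change of 1 or more in size was reached by 9 raised and 6 lowered members. Just inside the limit for raised members were means of 0.5813 and 0.5815, and just outside it 0.5797 and 0.5783. For lowered members the nearest means inside were both −0.583, and those outside were −0.578 and −0.576. The E2 means nearest to the limit thus differed by far less than the spread between arrays, whose median SD within a probe was 0.325 for raised and 0.208 for lowered members, against 0.204 over all 11478 rows.

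Members also lay close to the limits on the other groups. Among raised members the GH means closest to the limit were 0.2995 and 0.2955, and the nearest rows left out had 0.31 and 0.313. Among lowered members they were −0.296 and −0.29 inside, and −0.305 and −0.307 outside. For E2 plus GH the corresponding means were 0.292 and 0.29 against 0.301 and 0.304 for raised members. For lowered members they were −0.298 and −0.295 against −0.303 and −0.307.

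Members were a minority of the rows that moved after E2. Of 365 rows with an E2 mean of 0.58 or more, the 132 members made up 36.2%, and of 279 rows with a mean of −0.58 or less, the 62 members made up 22.2%. Among the raised rows that were not members, 110 reached 0.3 after both GH and E2 plus GH, 59 only after GH and 48 only after E2 plus GH, while 16 reached −0.3 in at least 1 of them. Among the lowered rows the same counts were 108, 21, 72 and 16. The largest class of rows beside the members was thus, in both directions, the one that moved the same way under all 3 treatments. These counts make no allowance for slide position. The medians of the 48 printed blocks of the slide had a rank correlation of 0.971 between E2 and GH. Between E2 and E2 plus GH it was 0.76. How much of this class goes with position was not tested.

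The members' ratios were read array by array. On E2 replicates 1 to 4 the median ratio of the raised members was 0.72, 0.85, 0.77 and 0.50. On the GH arrays it was 0.03, 0.06, 0.21 and 0.17, and on the E2 plus GH arrays −0.11, 0.00, 0.13 and 0.21. E2 replicate 4 had the lowest median of the E2 arrays, and 9 raised members were below 0 on it, against 1 on replicate 3 and 0 on replicates 1 and 2.

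For the lowered members the medians on E2 replicates 1 to 4 were −0.67, −0.60, −0.79 and −0.69. They were −0.03, −0.19, −0.08 and −0.25 on the GH arrays and −0.04, −0.13, −0.12 and −0.20 on the E2 plus GH arrays. No value of a lowered member was above 0 on any E2 array. The medians of the E2 arrays lay apart from those of the other 8 arrays in both directions, a separation that the choice of members favours.

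In the deposited values, the group means under GH were small but leaned the way of the E2 change. Of the raised members, 106 had a GH mean above 0 and 88 an E2 plus GH mean above 0, with medians of 0.12 and 0.08. Of the lowered members, 53 had a GH mean below 0 and 54 an E2 plus GH mean below 0, with medians of −0.13 and −0.17. Both means were within 0.1 of 0 for 25 raised and 7 lowered members. With the median of each printed block removed on each array, the GH and E2 plus GH medians were 0.01 and 0.04 for raised members. For lowered members they were 0.00 and −0.08. Whether the lean goes with slide position was not tested.

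Single arrays overlapped for most members. Every measured E2 array was above 0 for 121 of the 132 raised members, and below 0 for all 62 lowered ones. The E2 arrays lay wholly above every GH and E2 plus GH array for 48 raised members and wholly below them for 29 lowered members. Over all 11478 rows, 2.19% lay wholly above and 2.21% wholly below, a background against which nothing is read because the rule used the same contrast. For the remaining 84 raised and 33 lowered members, at least 1 E2 array fell among the others.

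The largest rise was that of probe Rn30010789, with E2 ratios of 2.29, 2.78, 0.64 and 3.03. Its GH ratios were 0.80, −0.42, −0.57 and −0.29, and its E2 plus GH ratios −1.03, 1.82, 0.38 and −2.13. The groups overlapped, since E2 replicate 3 lay below GH replicate 1 and E2 plus GH replicate 2, and the E2 plus GH arrays spread more than any other set of this probe (SD 1.72, n = 4). In the fit of all 12 arrays with limma, its log2 ratio was 2.38 (SE 0.494) for E2 against TXOX and 2.63 (SE 0.701) for E2 against E2 plus GH. Here and for the next 3 probes no p is given, because the same contrasts chose the members.

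Probe Rn30009796 had the next largest rise, with E2 ratios of 1.66, 1.24, 1.45 and 1.65. Its GH ratios were 0.41, 0.32, 0.32 and −0.23, and its E2 plus GH ratios 0.09, −0.16, 0.56 and −0.42. No array of the other groups reached the lowest E2 array. The E2 arrays exceeded the GH arrays by 1.33 (SE 0.208) and the E2 plus GH arrays by 1.51 (SE 0.208).

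The largest fall was that of probe Rn30017870, with E2 ratios of −1.38, −0.85, −1.56 and −2.30. After GH it was at 0.53, −0.23, 0.07 and 0.74, and after E2 plus GH at 0.35, −0.13, −0.07 and 0.06. All E2 arrays lay below all others. The difference was −1.98 from GH (SE 0.284) and −1.78 from E2 plus GH (SE 0.284).

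Probe Rn30022290 fell next furthest, to −1.40, −0.81, −1.44 and −2.23 after E2. Its GH ratios were 0.69, 0.21, 0.12 and −0.02, and its E2 plus GH ratios 0.33, 0.16, 0.12 and 0.24. The E2 arrays again lay apart from the other 8, by −1.81 from GH (SE 0.25) and −1.79 from E2 plus GH (SE 0.25). All 4 named probes were bright, at the 88.4th to 95.6th percentile of intensity, and had no saturated pixels on any array.

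The differences between treatments were fitted with limma on the scanner values of all 12 arrays, after a global loess. E2 against TXOX was called at an adjusted p under 0.05 for 118 of the 132 raised and 61 of the 62 lowered members, against 9.21% higher and 9.46% lower among all probes tested. With a ratio of at least 0.58 in size as well, 105 raised and 55 lowered members were called, against 3.1% higher and 3.14% lower. GH against TXOX was called for 0 of the 194 members, against 6.99% of all probes, and 14 raised and 6 lowered members had an unadjusted p under 0.05. E2 plus GH against TXOX was called for 0 of the 194 members, against 8.47% of all probes, with 10 raised and 10 lowered at an unadjusted p under 0.05. The shares over all probes are at the adjusted p, and none is given for the unadjusted counts. Nothing is read from these shares or counts, since the rule used the same contrasts.

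The comparisons between treatments called far fewer members. A dye effect cancels in them only where it is the same on every array. The pattern of slide position described below differed between arrays and does not cancel. E2 exceeded GH for 17 raised members (0.413% of all probes were called higher) and was below it for 8 lowered members (0.694% were called lower). E2 exceeded E2 plus GH for 16 raised members (0.295% were called higher) and was below it for 9 lowered members (0.413% were called lower). Both differences were called for 8 raised and 5 lowered members, against 0.414% of all probes in either direction. These contrasts too are made of the values that chose the members, so the counts are a description. The difference between E2 and E2 plus GH did not pass for 169 of the 194 members, and its median was 0.65 for raised members (median SE 0.208) and −0.56 for lowered members (median SE 0.186). These counts depended on single arrays. The 25 members called against GH became 13 without E2 replicate 1, 10 without E2 replicate 3, and 13, 14 and 16 without GH replicates 1, 3 and 4. The share called over all probes fell as well, from 1.11% to 0.755, 0.639, 0.659, 0.664 and 0.786% in the same order. The 25 called against E2 plus GH became 14, 14 and 11 without E2 replicates 1, 2 and 3, and 14 without E2 plus GH replicate 1 or 2. Over all probes this share fell from 0.708% to 0.412, 0.386, 0.277, 0.343 and 0.41% in that order.

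The members were spread very unevenly over the slide. Each array carried 48 printed blocks in 12 rows of 4, and the table held 136 to 424 usable rows per block. The 5 blocks with most raised members (46, 43, 45, 38 and 41) held 55 of the 132, or 41.7%, and 10.7% of all 11478 rows. They held 14, 13, 11, 9 and 8 raised members. The 5 blocks with most lowered members (12, 4, 8, 16 and 20, the last tied with block 24) held 42 of the 62, or 67.7%, and 10.5% of all rows. They held 13, 10, 10, 5 and 4 lowered members. No lowered member lay in the first set of blocks and 1 raised member lay in the second, the probe Rn30010789 in block 8. In block 46, 14 of 167 rows were raised members (8.38%), and in block 12, 13 of 284 rows were lowered members (4.58%).

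The 2 regions described next, drawn from the map after the positions were seen, held most members. Block rows 9 to 12 held 100 of the 132 raised members (75.8%) and 2 of the lowered ones, with 35.4% of all rows. Block column 4 in rows 1 to 7 held 48 of the 62 lowered members (77.4%) and 1 raised one, with 15.5% of all rows. No member lay in 8 blocks, and 5 blocks held members of both signs.

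The ratio of all probes in a block moved with the place of the block. The median E2 value of a block ran from −0.38 in block 8 to 0.39 in block 45, although members made up 1.69% of the rows. Raised members lay in the 26 blocks with a median above 0 in 121 of 132 cases, and lowered members in the 22 blocks with a median below 0 in 59 of 62. Over the 48 blocks, which share the same arrays, the rank correlation of the block's median with its share of raised members was 0.768, and with its share of lowered members −0.729. Differences between blocks accounted for 41.1% of the variance over rows in the E2 means, 20.1% in the GH means and 9.48% in the E2 plus GH means. Their medians ran from −0.19 to 0.34 after GH and from −0.19 to 0.17 after E2 plus GH.

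The E2 arrays were not alike in this respect. The share of variance between blocks was 19.3%, 58.8%, 34.3% and 18.8% on E2 replicates 1 to 4. It was 10.4 to 23.8% for single GH arrays and 3.98 to 15.9% for single E2 plus GH arrays. On E2 replicate 2, the block medians ran from −0.63 to 0.74, and their rank correlation over the 48 blocks with the ratio of Cy5 to Cy3 local background was 0.98, against 0.336 to 0.54 on the other E2 arrays. Without this array the rule found 100 raised and 87 lowered members, of which 33% and 55.2% lay in their 5 fullest blocks. Without E2 replicate 4 it found 294 raised and 96 lowered members, and without E2 replicate 1 it found 99 lowered ones. On all 4 E2 arrays the 5 blocks richest in raised members had higher medians (0.31, 0.64, 0.35 and 0.12) than the 5 richest in lowered members (−0.21, −0.39, −0.42 and −0.28).

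The other rows that moved after E2 lay in the same regions. Of the 233 raised rows that were not members, 174 (74.7%) lay in block rows 9 to 12, close to the 75.8% of members. Of the 217 lowered rows that were not members, 113 (52.1%) lay in column 4 of rows 1 to 7, against 77.4% of members. Of rows that moved by 0.58 or more in the same direction after both E2 and E2 plus GH, 27 of 48 raised (56.2%) and 29 of 82 lowered (35.4%) lay in those regions. These shares are descriptions, since all of them rest on the same E2 arrays.

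Copies of the same oligonucleotide printed in different blocks gave another measure of position, read on the scanner values after the global loess. The rule did not choose these copies, apart from 1 member that is such a copy. The regions compared were drawn from the members' positions, and the copies were read on the same arrays. The differences between regions are thus a description and are not independent of the rule. There were 12 rat probes with several copies each, 130 spots of which were measured after E2. In block rows 9 to 12, 43 of 47 copies lay above their own probe's mean, by a median of 0.25. In column 4 of rows 1 to 7, 18 of 20 lay below it, with a median deviation of −0.26. The same probe thus read higher in the first region than in the second by a median of 0.49 after E2, from 0.09 to 0.88, and did so for 12 of 12 probes. After GH the difference was 0.34 and was above 0 for 12 of 12 probes, and after E2 plus GH it was 0.27 and above 0 for 10 of 12.

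Removal of each block's median on each array reduced the set. The median E2 ratio of the 132 raised members fell to 0.45 and that of the 62 lowered members moved to −0.37, and 32 and 9 of them still met the rule. Of the raised members that left the rule, all 100 had an E2 mean under 0.58 in size afterwards, and of the 53 lowered ones 49 did. With the block medians removed, GH and E2 plus GH medians of the raised members were 0.01 and 0.04, and those of the lowered members 0.00 and −0.08. Applied anew to the whole table, the rule found 49 raised and 31 lowered rows.

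The members that stayed had the larger changes. The 32 raised ones had a median E2 mean of 0.87 in the deposited table and 0.72 afterwards, and lay in 18 blocks with 9 of them in the 5 fullest. The 9 lowered ones had medians of −1.03 and −0.80 and lay in 8 blocks. All 4 named probes were among them, and they had been picked for the largest changes. Their E2 means after removal were 2.57 for Rn30010789, 1.20 for Rn30009796, −1.51 for Rn30017870 and −1.46 for Rn30022290.

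With a loess fitted within each block of the scanner values, the members' ratios were also smaller. The median E2 ratio of the members was then 0.48 for raised and −0.39 for lowered, against 0.70 and −0.68 with the global loess. After it, 45 raised and 17 lowered members still had an E2 mean of 0.58 or more in size, against 117 and 56 after the global loess. The members called by limma for E2 against TXOX fell from 179 to 79, while the share called over all probes fell from 18.7% to 5.03%. Applied anew to these values, the rule found 107 raised and 50 lowered probes, of which 43 and 12 were among the members above. Probe Rn30022290 was not among them, with means of 0.39 after GH and 0.38 after E2 plus GH.

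The rule was also applied without 1 array at a time, and the members so chosen were read on the array left out. On E2 replicates 1 to 4 the raised members had medians of 0.47, 0.70, 0.56 and 0.22, and the lowered members −0.45, −0.47, −0.60 and −0.44. All rows on these arrays had medians from −0.01 to 0.12. The sign was kept by 79.5 to 98.9% of raised and 91.1 to 98.8% of lowered members, and the size of 0.58 by 14 to 63.8% and 28.4 to 51.6%. Over all rows on these arrays, 48.7 to 60.2% were above 0 and 39.7 to 51.1% below it, and 3.11 to 14.5% and 4.5 to 5.29% were past 0.58 in these directions. The held-out arrays share the position pattern of the others. With the block medians removed before the choice, the medians were 0.62, 0.47, 0.60 and 0.31 for raised members and −0.72, −0.40, −0.62 and −0.63 for lowered members, over 24 to 82 measured rows, so the direction was kept on all 4 arrays.

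On held-out GH and E2 plus GH arrays the values were no longer tied to the limits. The raised members had medians of 0.06, 0.12, 0.23 and 0.22 on GH replicates 1 to 4, and −0.06, 0.07, 0.26 and 0.24 on E2 plus GH replicates 1 to 4. The lowered members had −0.06, −0.20, −0.08 and −0.32 on GH, and −0.24, −0.26, −0.22 and −0.28 on E2 plus GH. The median thus had the E2 direction on 15 of 16 of these readings, the exception being E2 plus GH replicate 1 for raised members. In the deposited table its size stayed below that on any held-out E2 array except that of raised members on E2 replicate 4. With the block medians removed before the choice, the direction was that of E2 on 14 of 16 readings. The raised members then read −0.04, 0.10, 0.10 and 0.10 on GH, and −0.18, 0.01, 0.29 and 0.22 on E2 plus GH. The lowered members read −0.13, −0.10, −0.06 and −0.02 on GH, and −0.41, −0.40, −0.22 and −0.27 on E2 plus GH. On E2 plus GH replicates 1 and 2 the lowered members were thus about as far from 0 as on held-out E2 replicate 2 (−0.40).

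The members spanned the range of brightness. Mean intensity lay at a median percentile of 52.4 for raised and 59.3 for lowered members among all 11478 rows, from 5.9 to 99.5 and from 1.28 to 99.5. A channel was counted as above background when more than 50% of a spot's pixels exceeded local background by over 2 SD. Both channels met this on all 12 arrays for 49 raised members (37.1%) and 15 lowered members (24.2%), against 32.8% of all rows. Saturated pixels were found on some array for 1 raised and 2 lowered members. Of the 194 members, 135 had all 4 values in each group, and the other 59 lacked at least 1.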

How the data were processed

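Hepatic RNA of 12 treated rats was hybridised against TXOX RNA on 12 arrays. The authors deposited GenePix Pro intensity values (foreground and local background per spot), with percent values of pixels above background and saturated pixels, flags and a signal-to-noise score per spot. The other deposited table holds LOWESS-normalized log2 ratios, treatment over TXOX. Members were found in that table. Against the loess-normalized scanner ratios, it correlated by 0.89 to 0.987 on the 12 arrays, with slopes of 0.702 to 1.01, so a fixed limit does not mean the same on both. Its median was 0.084 on E2 replicate 2 and ran from −0.009 to 0.024 on the other arrays.

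From the intensities, background was corrected by normexp (offset 50) in limma 3.58.1 (R 4.3.3), and a loess was fitted within each array. Of 27648 spots, 554 held no rat probe, and the others held 26962 distinct probes. Spots with a negative flag were also removed, and 19398 to 22696 spots per array were unflagged. Probes with 3 of 4 arrays in each group compared were tested in 1 linear model of 12 arrays (9 residual degrees of freedom), with a variance trend and Benjamini-Hochberg adjustment over all probes. The table held 12305 to 17490 values per array. The number of arrays limits precision. The fit was tested on simulated data and the rule on a few made-up rows. The simulated noise was independent between arrays and held no block pattern, so that test does not cover such a pattern.

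The members, lists and tests were chosen with earlier results of these data known. Named probes were those with the largest change of 1 sign on every E2 array, at most a pair per direction because probes have no gene names. SAM was not run, and gene lists, markers and promoters were not analysed here. Alternatives covered the normalization, background, limits, filters, variance model, replicate block and each array left out.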

Additional observations from a re-analysis of the deposited data

Results flagged for a closer look

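Of 24 sets of 4 arrays checked (the members' medians in each group, the held-out medians, and the named probes), 1 had an array far from the other 3. Probe Rn30009796 had ratios of 0.41, 0.32 and 0.32 on GH replicates 1 to 3 and −0.23 on replicate 4, a gap of 0.853 of the whole range, above Dixon's 95% critical value for 4 values. Chance flags about 1 in 20 such sets.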

How the results depend on the processing

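The count of members depended on how the ratios were made. Removal of block medians gave 49 raised and 31 lowered members, and the global loess of scanner values 197 lowered. An E2 limit of 1 gave 9 and 6, limits of 0.2 on GH and E2 plus GH gave 71 and 26, and no limit on E2 plus GH gave 134 lowered. Without 1 array the counts ran from 100 to 294 for raised and from 51 to 99 for lowered members, the highest without E2 replicate 4 and replicate 1. Loess within each block gave a set of 107 raised and 50 lowered probes, sharing 43 and 12 with the members, and 28% and 30% of that set lay in its 5 fullest blocks. Without E2 replicate 2, an alternative chosen after seeing the data, the shares of the rule's set were 33% and 55.2%. With block medians removed, the held-out median of lowered members on E2 arrays was −0.62, against −0.46, and on E2 plus GH arrays −0.34, against −0.25.

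Loess within each block left 79 members called for E2 against TXOX, 2 for GH, 1 for E2 plus GH, 14 for E2 against GH and 10 for E2 against E2 plus GH. Over all probes, the shares called were 5.03, 2.88, 6.07, 0.964 and 0.479%, against 18.7, 6.99, 8.47, 1.11 and 0.708% with the global loess. With only spots above background in at least 1 channel, 1 was called for E2 plus GH (14.2% of all probes). On only the arrays compared, 38 were called for E2 against GH (1.5% of all probes) and 13 for E2 against E2 plus GH (0.39%). Leaving out 1 array gave 152 to 184, 0 to 1, 0 to 5, 10 to 32 and 11 to 33 calls in the 5 comparisons. The shares over all probes were then 9.7 to 19.7%, 2.72 to 7.72%, 4.0 to 11.2%, 0.639 to 1.32% and 0.277 to 1.5%. E2 arrays and others of the same number deviated together only weakly and with both signs (correlations from −0.175 to 0.21). The numbers were therefore not taken as pairs in the comparisons made here. Same-numbered TXOXGH and TXOXE2GH arrays did deviate together (0.306 to 0.453). These groups were not compared with each other, but the rule used both and the main fit took all arrays as independent. Their values near 0 are thus not independent readings. With the replicate block, 3 members were called for GH (9.82% of all probes), 2 for E2 plus GH (11.2%) and 39 for E2 against GH (1.56%). The cause of these changes was not tested. Apart from these and the single arrays left out, the counts stayed within 1.5 times those reported.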
